A study of Rattus norvegicus with 2 samples.

Results

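The GIMAP genes encode GTPases of the immunity-associated protein family, which are made mainly in lymphocytes and govern how long these cells live. They were examined in rat splenic natural killer (NK) cells of 2 sorted subsets, through every probe set of the expression array whose annotated symbol begins with Gimap. This rule found 6 of 31099 probe sets, which represent 5 of the 14217 genes with a probe set of their own. Gimap1 had 2 probe sets, and Gimap4, Gimap5, Gimap6 and Gimap7 had 1 each. Gimap8 and Gimap9 had no probe set under their symbols and were not analysed here. None of the 6 probe sets was annotated with more than 1 gene, and the gene numbers of all 6 carried the same symbol in a RefSeq table of the GRCr8 rat assembly.

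Both populations came from PVG.7b rats aged 8 to 12 weeks, with 9 rats in the study and no treatment named in the labels. T cells, B cells and macrophages were first removed from spleen mononuclear cells by beads, through antibodies to CD45RA, CD5, CD68, the kappa chain of immunoglobulin and the T cell receptor of the alpha-beta type. CD3-negative, NKR-P1A-positive NK cells were then sorted, at a purity above 90%, that carried either the inhibitory receptor NKR-P1B or the activating receptor Ly49s3 but not the other. Whether RNA of several rats was pooled was not given in the sources used here, and 1 array was hybridised per population. There are therefore no replicates and no test, and each difference describes these 2 arrays.

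GIMAP proteins bind GTP through a domain related to that of the septins, and several members are anchored to membranes inside the cell. Gimap5 is known in the rat from the lymphopenia mutation of the diabetes-prone BB strain, whose T cells die early, and its loss in mice also depletes NK cells. Other members are tied to lymphocyte survival in mice (Gimap1), to the pace of T cell death (Gimap4) and to autophagy through a partner of the ATG8 family (Gimap6).

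Of the 6 GIMAP probe sets, 5 had nearly the same signal in NKR-P1B+ and Ly49s3+ NK cells, and that of Gimap4 was 1.86-fold higher in Ly49s3+ cells. Transcripts of Gimap1, Gimap5, Gimap6 and Gimap7 differed by 1.21-fold at most. These values hold for the scale as deposited. On another scale, given below, Gimap4 was within 1.5-fold, and 3 other GIMAP probe sets were at least 1.5-fold higher in NKR-P1B+ cells. All 6 probe sets were above the floor of 20.4 on both arrays, with signals from 89.2 to 830.1. Signals are MAS5 values in arbitrary units, and the floor is the median of all non-control signals. Differences are log2, NKR-P1B+ minus Ly49s3+, so that a negative value is a higher signal in Ly49s3+ cells. In whole sorted populations, fewer cells with a transcript and less of it per cell cannot be told apart.

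**Figure D1:**
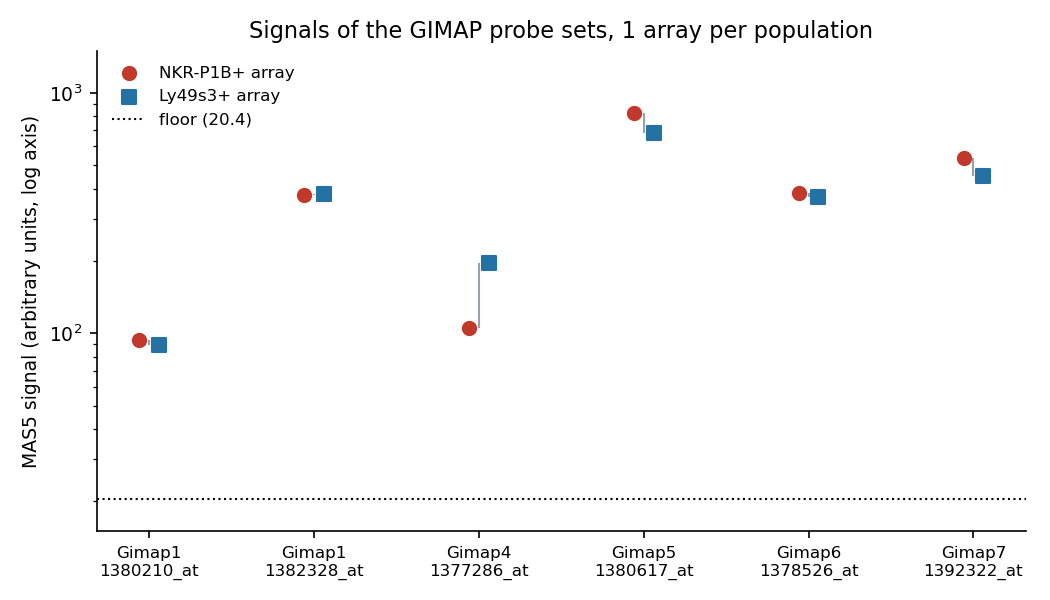
MAS5 signal in arbitrary units on a log axis for each GIMAP probe set, with a circle for the NKR-P1B+ array, a square for the Ly49s3+ array and a dotted line at the floor of 20.4. The 2 marks of Gimap4 stand apart at 105.3 and 195.7, whereas those of the other 5 probe sets lie close together on the deposited scale.

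Gimap4, the member linked to the pace of T cell death, had a signal of 105.3 in NKR-P1B+ cells and 195.7 in Ly49s3+ cells. The log2 difference was −0.89. It was 3.94 times the SD of 0.23 seen between 2 probe sets of the same gene at a mean signal of 128 to 256, over 524 such genes. That spread comes from the same 2 arrays and does not hold the variation of rats, of sorts or of arrays. Of all 16465 probe sets above the floor on at least 1 array, 1.86% had a difference at least as far toward Ly49s3+ cells, and of the 2773 with a mean signal of 128 to 256, 0.94% did. Gimap4 was read by a single probe set, so no other probe set could be set beside it.

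Gimap5, the member mutated in lymphopenic rats, had 830.1 in NKR-P1B+ cells and 684.3 in Ly49s3+ cells, a difference of 0.28. Gimap7, a GTPase that works as a dimer, had 537.6 and 453.1, a difference of 0.25. Both were nominally higher in NKR-P1B+ cells, by 1.21-fold and 1.19-fold. These differences were 1.52 and 1.15 times the SD between probe sets of the same gene at like signal, which was 0.18 for Gimap5 and 0.21 for Gimap7. Among probe sets within the same doubling of mean signal, 13.5% and 15.9% lay at least as far toward NKR-P1B+ cells, so differences of this size were common on these arrays.

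Gimap6, the member tied to autophagy, had 382.1 in NKR-P1B+ cells and 369.9 in Ly49s3+ cells, a difference of 0.05. Gimap1, which mature lymphocytes of mice need to persist, had 378.3 and 379.4 on 1 of its probe sets and 94.3 and 89.2 on the other. The 2 Gimap1 probe sets gave differences of −0.0042 and 0.08, which were 0.08 apart. All 3 differences were smaller than the SD between probe sets of the same gene at like signal, which was 0.21 for Gimap6 and the first Gimap1 probe set and 0.31 for the second.

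**Figure D2:**
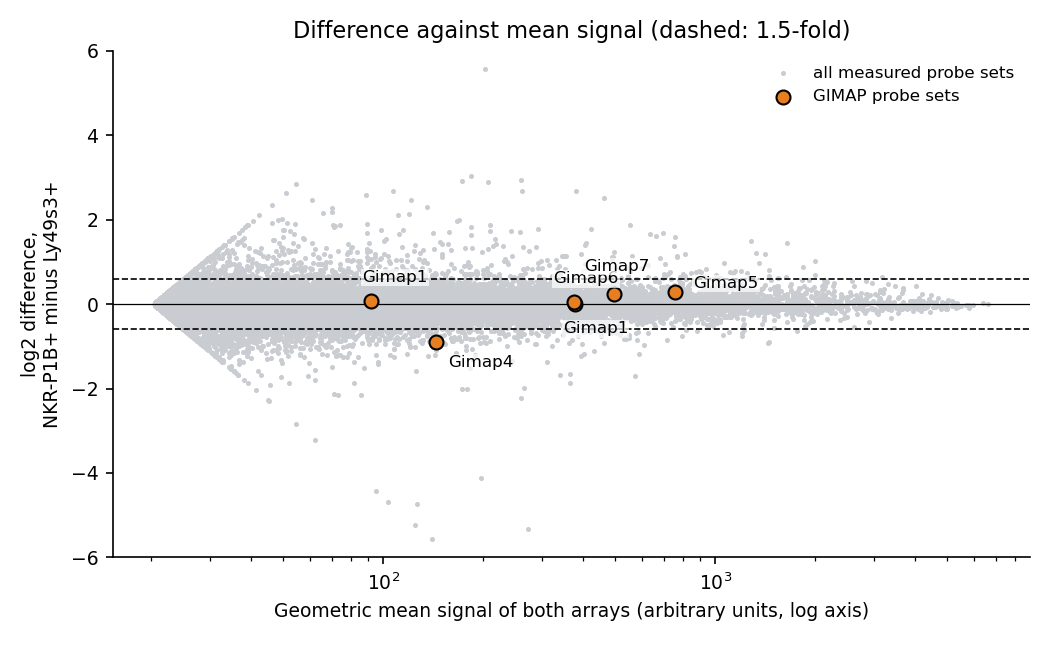
Log2 difference, NKR-P1B+ minus Ly49s3+, against the geometric mean signal of both arrays on a log axis, for all 16465 measured probe sets in grey and the 6 GIMAP probe sets in orange, with dashed lines at 1.5-fold. Gimap4 lies below the lower line at −0.89, and the other 5 probe sets lie within both lines, from −0.0042 to 0.28, on the deposited scale.

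Counted at 1.5-fold, 1 of 6 GIMAP probe sets was higher in Ly49s3+ cells, where 6.35% of all measured probe sets were. None was at least 1.5-fold higher in NKR-P1B+ cells, where 4.91% of all measured probe sets were. The GIMAP median was 0.06 and the mean −0.04, opposite in sign because of Gimap4, and the median over all measured probe sets was −0.03. The SD of the 6 differences was 0.43, and the 5 without Gimap4 had a median of 0.08. Over all measured probe sets the SD was 0.42, which is not a comparison at like signal because dim probe sets differed more. At a mean signal of 32 to 64, 11.5% were at least 1.5-fold higher in Ly49s3+ cells, and at 256 to 512, 2.81% were.

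The direction of these small differences rests on the scale of the arrays, which share a trimmed mean signal as deposited. Poly-A spikes, transcripts of known amount usually added to the RNA before labelling, gave a median difference of −0.53 over the 17 of their probe sets above the floor, within a range from −0.97 to 0.21. The 18 hybridisation control probe sets had a median of 0.0076. Scaling to the poly-A spikes moved the median of all measured probe sets by 0.50 and left 6370 at least 1.5-fold higher in NKR-P1B+ cells and 209 in Ly49s3+ cells, against 809 and 1045 as deposited. On that scale Gimap4 was at −0.36, within 1.5-fold, Gimap5, Gimap7 and the dimmer Gimap1 probe set were more than 1.5-fold higher in NKR-P1B+ cells, at 0.81, 0.78 and 0.61, and Gimap6 and the brighter Gimap1 probe set were at 0.58 and 0.53. The gap between Gimap4 and the rest of the family does not depend on a common scale. As deposited, the difference of Gimap4 minus the median of the other 5 probe sets was −0.97. Both other floors, median centring and the poly-A scaling left it unchanged by construction, because the GIMAP signals lie above every floor. Quantile normalisation, the loess trend and log2 of the value plus 32 gave from −0.99 to −0.79. On these 2 arrays Gimap4 thus stood 1.96-fold apart from the median of the other GIMAP probe sets, a measure chosen after seeing the data.

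**Figure D3:**
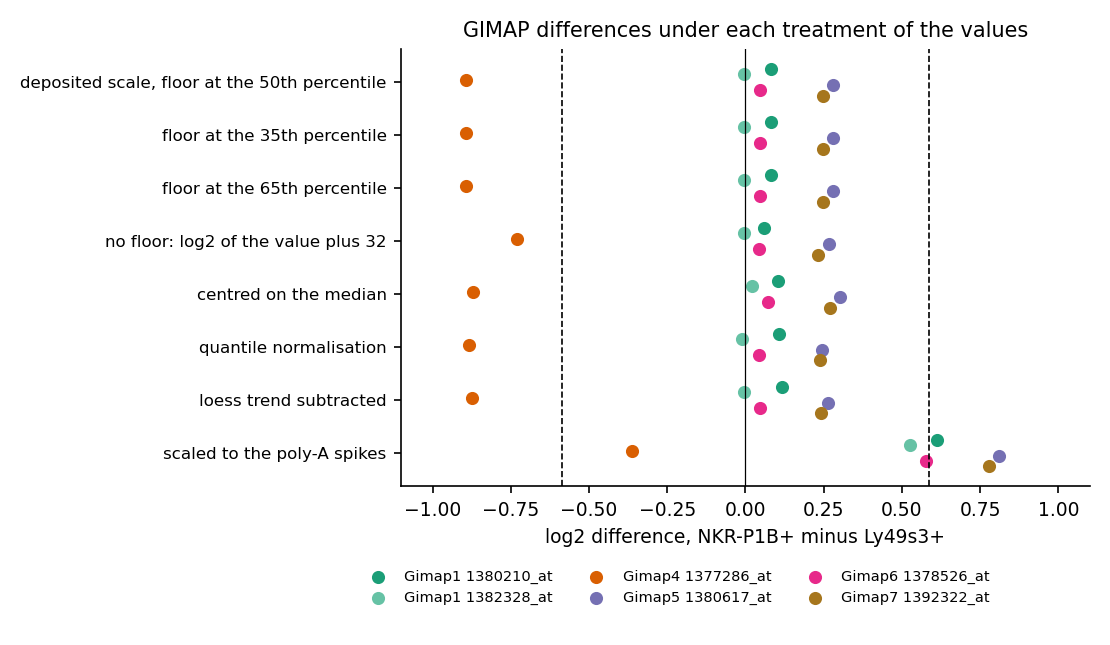
Log2 difference, NKR-P1B+ minus Ly49s3+, of each GIMAP probe set (points, by colour) as deposited and under 7 other floors and scalings (rows), with dashed lines at 1.5-fold. Gimap4 is the lowest point in every row, and scaling to the poly-A spikes shifts all 6 points to the right, taking Gimap4 from −0.89 to −0.36.

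The 7 rat GIMAP genes stand side by side on chromosome 4 in the RefSeq gene order, as Gimap8, Gimap9, Gimap4, Gimap6, Gimap7, Gimap1 and Gimap5, with no other gene listed between them. Gimap6 lies on the minus strand and the other 6 on the plus strand. Gimap4 thus has Gimap6 as its nearest measured neighbour, whose difference was 0.05. The 250 bases before the annotated start are shown for Gimap4, whose transcript differed, and for the next 3 genes in order, Gimap6, Gimap7 and Gimap1, whose transcripts were within 1.5-fold as deposited. They are read 5′ to 3′ on the strand of the gene, from RefSeq's GRCr8 assembly of the BN/NHsdMcwi rat, which is not the strain studied. Capitals mark the letters GGAAGT on either strand (ACTTCC on the other). These letters are a form of the site bound by ETS factors, a family that acts in lymphocytes, and other forms were not searched.
Gimap4, chr4:78967047-78967296, plus strand: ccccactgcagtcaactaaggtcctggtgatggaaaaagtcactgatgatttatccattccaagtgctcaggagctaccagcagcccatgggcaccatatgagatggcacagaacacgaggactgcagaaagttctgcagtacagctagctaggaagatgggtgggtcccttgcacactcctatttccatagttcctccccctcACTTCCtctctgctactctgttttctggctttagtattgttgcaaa
Gimap6, chr4:78990007-78990256, minus strand: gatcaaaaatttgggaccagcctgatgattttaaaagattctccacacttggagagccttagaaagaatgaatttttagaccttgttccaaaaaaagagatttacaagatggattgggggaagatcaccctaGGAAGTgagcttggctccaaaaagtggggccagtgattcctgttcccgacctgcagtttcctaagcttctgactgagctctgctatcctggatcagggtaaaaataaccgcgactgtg
Gimap7, chr4:79001166-79001415, plus strand: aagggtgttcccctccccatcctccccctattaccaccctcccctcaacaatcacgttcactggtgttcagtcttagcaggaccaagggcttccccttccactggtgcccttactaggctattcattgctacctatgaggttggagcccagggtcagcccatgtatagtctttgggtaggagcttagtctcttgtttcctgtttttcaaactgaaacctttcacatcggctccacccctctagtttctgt
Gimap1, chr4:79018223-79018472, plus strand: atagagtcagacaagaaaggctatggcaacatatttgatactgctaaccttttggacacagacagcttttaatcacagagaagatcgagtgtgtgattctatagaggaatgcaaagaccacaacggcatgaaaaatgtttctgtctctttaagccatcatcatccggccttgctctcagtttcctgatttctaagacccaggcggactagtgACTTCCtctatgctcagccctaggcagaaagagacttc

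Gimap4, Gimap6 and Gimap1 each held 1 match to GGAAGT, beginning 46, 118 and 38 bases before the start, and Gimap7 held none. Of all 7 GIMAP promoters 4 held these letters, the other being that of Gimap9, against 19.2% of 33469 promoters of the same length. Promoters with GGAAGT thus included that of Gimap4, whose signal differed, and those of Gimap6 and Gimap1, whose signals did not differ by 1.5-fold as deposited. The RUNX letters TGTGGT stood in 2 GIMAP promoters (Gimap8 and Gimap1) and in 14.5% of all, and the T-box letters AGGTGT in 1 (Gimap5) and in 11.6% of all. The letters CACCTG, 1 form of the E-box, stood in no GIMAP promoter and in 15.9% of all, and other forms of the E-box were not searched. The forkhead letters GTAAACA stood in 1 GIMAP promoter (Gimap8) and in 3.21% of all. Both strands were searched for each of the 5 motifs, none of which contains another. A match describes these letters only.

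The 10 named protein-coding genes on each side of the cluster were read in the same way, each gene by its brightest probe set. Of these 20 neighbours 18 were on the array and 12 were above the floor. At least 1.5-fold higher in NKR-P1B+ cells were 2 of the 12, where 5.06% of all 9114 measured genes were. They were Atp6v0e2, which encodes a subunit of the vacuolar proton pump (169.9 against 113.2), and Zfp467, a zinc finger gene below the floor in Ly49s3+ cells (31.7 against 19.1). In Ly49s3+ cells none was 1.5-fold higher, beside 5.72% of all genes measured, and the median was 0.14. That median was set by the floor, because its middle members were below the floor in Ly49s3+ cells. With the floor at the 35th and 65th percentiles it was 0.35 and 0.24. Tmem176b, directly beside Gimap5, was below the floor on both arrays, at 20.1 and 17.2. Tra2a, a splicing factor gene, had 986.7 and 901.8.

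**Figure D4:**
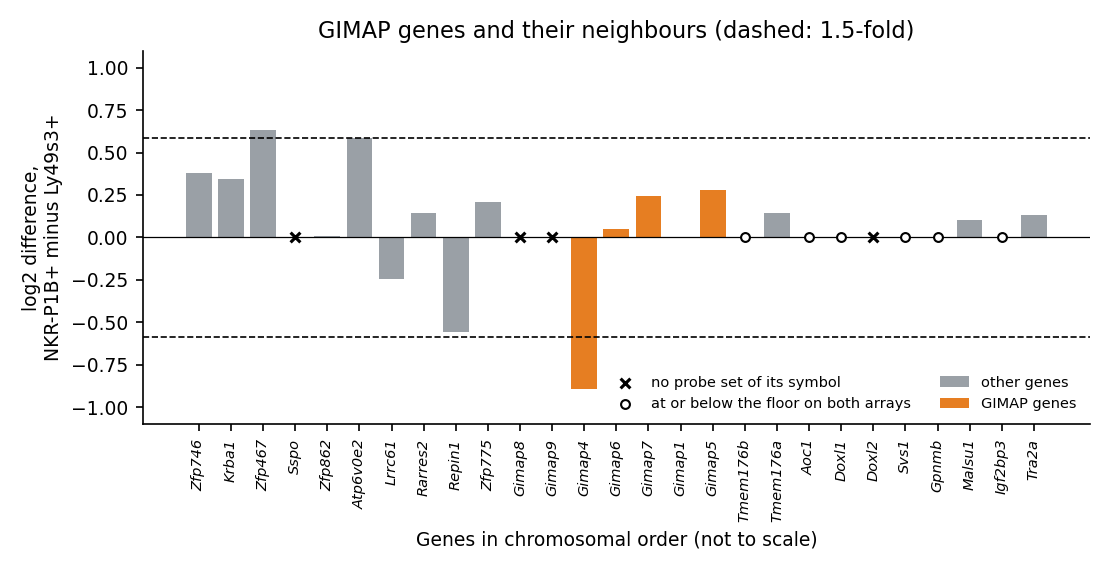
Log2 difference, NKR-P1B+ minus Ly49s3+, as deposited, of the GIMAP genes (orange bars) and the 10 named genes on each side (grey bars) in chromosomal order, not to scale, with dashed lines at 1.5-fold. Crosses mark genes with no probe set of their symbol and open circles genes at or below the floor on both arrays; Gimap4 is the only bar past the lower line, which it does not pass after scaling to the poly-A spikes.

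The genes with which GIMAP proteins are known to work or share a role were read from lists, again by the brightest probe set of each gene. In the BCL-2 family, which sets the threshold of cell death, 3 of the 11 genes measured were higher by at least 1.5-fold in NKR-P1B+ cells and 1 in Ly49s3+ cells, beside 5.06% and 5.72% of all genes measured. Bcl2a1, a survival gene, had 898.2 in NKR-P1B+ cells and 548.9 in Ly49s3+ cells. Bik, a death-promoting member, was at least 2.19-fold higher in NKR-P1B+ cells (44.7 against 10.1), and the survival gene Bcl2l2 at least 1.72-fold (35 against 17.9), both being bounds set by the floor. Bcl2l1, which encodes BCL-XL, was the member at least 1.5-fold higher in Ly49s3+ cells, with 72.0 in NKR-P1B+ cells and 109.3 in Ly49s3+ cells. That is 1.52-fold, and its other measured probe set, at −0.46, was within 1.5-fold. Mcl1, the survival factor on which NK cells depend, had 3313 and 3329, and its other probe set gave a difference of 0.55. The median of the family was −0.0073.

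Of 12 autophagy genes, 1 was at least 1.5-fold higher in NKR-P1B+ cells, a share near the 5.06% of all genes measured, and the median was 0.09. This was Gabarapl1, an ATG8 protein of the autophagosome membrane, with 437.3 in NKR-P1B+ cells and 265.8 in Ly49s3+ cells. Both of its probe sets ran that way, with differences of 0.72 and 1.06. Gabarapl2, the partner described for Gimap6, had no probe set under its symbol alone. Sqstm1, an autophagy receptor, had 1951 and 1781, with its measured probe sets from −0.94 to 0.46, and Becn1, which starts autophagosome formation, had 707.5 and 720.6.

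Genes of lymphocyte quiescence and recirculation had 2 of 14 measured members at least 1.5-fold higher in Ly49s3+ cells, beside 5.72% of all genes measured, and none in NKR-P1B+ cells, beside 5.06%. These were the transcription factor gene Lef1, with 85.3 in NKR-P1B+ cells and 168.8 in Ly49s3+ cells, and S1pr1, the receptor that leads lymphocytes out of tissue, with 821.5 and 1356. Satb1, a chromatin organiser of lymphocytes, had 2171 and 3142, and the antiproliferative gene Btg1 4880 and 4738.5. The median of the list was −0.04. Of the 6 genes of the GSK3 and beta-catenin group, linked to Gimap5 in mouse lymphocytes, Gsk3a was 1.55-fold higher in NKR-P1B+ cells (62.1 against 40), 1 of 6 beside 5.06% of all genes measured. The others were within 1.5-fold by their brightest probe sets, with Ctnnb1 at 2219.5 and 2090 and Csnk1a1 at 1754 and 1797. The measured probe sets of Csnk1a1 ran from −0.16 to 0.60, the highest past 1.5-fold. The median of the 6 genes was 0.07.

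Other GTPases of immune cells and septins, and their regulators, had a median of −0.02 over 18 measured genes. Of these 1 was at least 1.5-fold higher in NKR-P1B+ cells, a share near the 5.06% of all genes measured, namely Igtp, an interferon-induced GTPase, with 165.6 in NKR-P1B+ cells and 93.7 in Ly49s3+ cells. Rap1b, which controls integrin adhesion, had 3227.5 and 3361. These list medians all lay within 0.15 of 0 as deposited, and after scaling to the poly-A spikes they lay between 0.49 and 0.67, above 0, the neighbours of the cluster included.

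**Figure D5:**
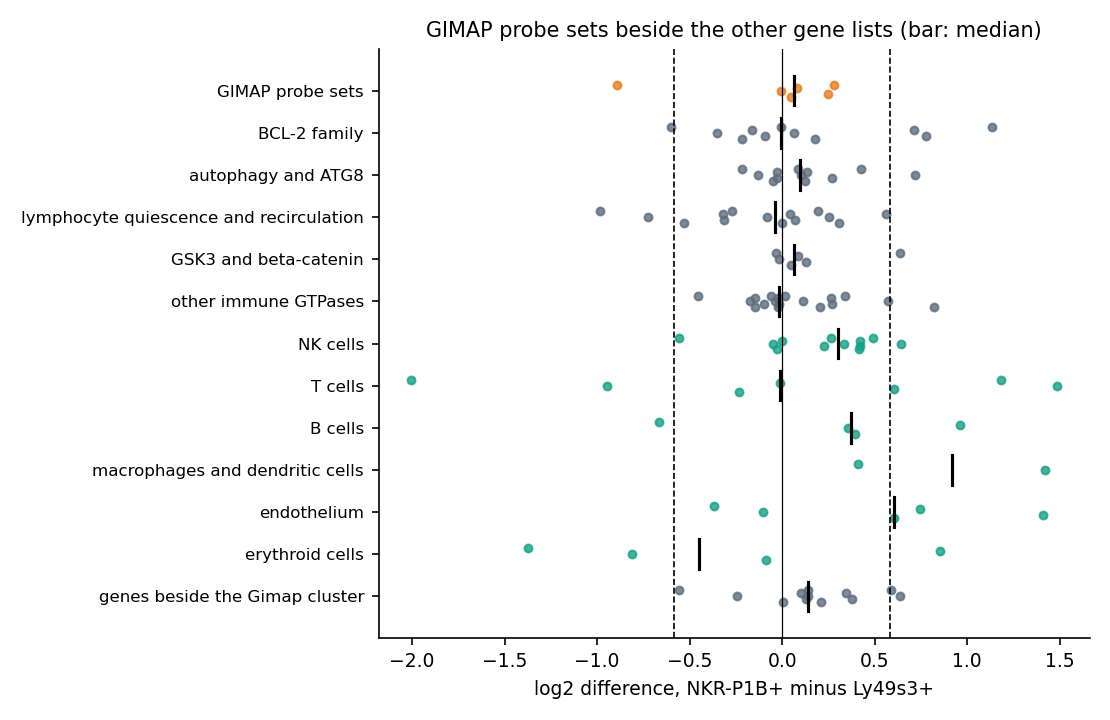
Log2 difference, NKR-P1B+ minus Ly49s3+, as deposited, of the 6 GIMAP probe sets (orange), of measured genes of the other lists (grey) and of cell type markers (green), with a black bar at each median and dashed lines at 1.5-fold. The GIMAP points lie near 0 but for Gimap4 at −0.89, and the marker lists of T, B, myeloid, endothelial and erythroid cells are spread widely over few measured genes; scaling to the poly-A spikes moves most of the medians to the right.

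The labels were checked against markers, without Ly49s3, which had no probe set under its symbol alone. Klrb1b, which encodes NKR-P1B, had 1399 in NKR-P1B+ cells and 29.4 in Ly49s3+ cells. All 12 NK cell markers on the array were measured, with summed signals of 30924 and 26256, and Gzmb was 1.56-fold higher in NKR-P1B+ cells (3973 against 2549), with Klrb1a at 3740 and 3813 and Fcer1g at 4000 and 3331. The median of the NK list was 0.30, with 8 of the 12 genes higher in NKR-P1B+ cells and 4 in Ly49s3+ cells, by any margin. The ratio of 3′ to 5′ signal was 11.9 and 13.2 for actin and 2.84 and 2.77 for Gapdh, so signal was lower toward the 5′ end of these controls on both arrays.

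GIMAP genes are also active in T cells, B cells and endothelium, so markers of these cells were set beside Gimap4. Of 14 T cell markers 11 were on the array and 7 were measured. The signals of all 11, those below the floor included, summed to 2682 in NKR-P1B+ cells and 1481 in Ly49s3+ cells, most of it from Cd8a (2151 and 767.4), which rat NK cells also carry. Without Cd8a the sum was higher in Ly49s3+ cells, the same side as Gimap4. Of the defining T cell markers, Cd3e had 0.7 and 0.9 and Cd3d 1.7 and 19.4, below the floor on both arrays, and Cd3g had 22.3 and 42.9; none was listed at 0. Cd3g and Trat1, an adaptor of antigen receptors (86.2 against 346.3), were thus higher on the same array as Gimap4, and Cd5 (92.7 against 40.8), Cd6 (273.1 against 179.4) and Cd8a on the other. Of all 7 measured, 4 were higher in Ly49s3+ cells and 3 in NKR-P1B+ cells, by any margin. The median of the T cell list was −0.01. Their part in the Gimap4 difference was not tested.

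Of the B cell markers 4 of 8 on the array were measured, with a median of 0.37, and the signals of all 8 summed to 366 and 381. Cd22 had 103.0 and 52.9 and ran against Gimap4, whereas Bank1, with 156.4 and 248.1, ran with it. Of the endothelial markers 5 of 9 were measured, and all 9 summed to 182 and 116. The median of the measured ones was 0.61, on the side opposite to Gimap4, led by Kdr at 54.1 and 11.8, a bound, and Esam at 34.2 and 14.6, also a bound, with Tie1 at 33.5 and 22 and Vwf at 23.9 and 30.9. Of the macrophage and dendritic cell markers 2 of 12 were measured, namely Lyz2 (356.3 against 133.0) and Itgax (2281 against 1716). Their median was 0.92. The signals of all 12 on the array, those below the floor included, summed to 2696.5 and 1925, most of it from Itgax in either population. The floor was not reached by 10 of the 12, Cd68, Cd14 and Csf1r among them. Which cells gave the Itgax signal was not tested. Of the erythroid markers 4 of 7 were measured, with a median of −0.45, and all 7 summed to 373.5 and 353. Hemgn (50.6 against 131.1) and Epor (15.5 against 35.8, a bound) ran with Gimap4 and Hbb (276.3 against 152.8) against it. The other measured probe set of Epor was at −0.02. The part of these cell types in the Gimap4 difference was not tested.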

How the data were processed

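RNA of each sorted population (3 ug of total RNA, per the labels' protocols) was hybridised to 1 Affymetrix rat array. The values deposited by the authors are microarray intensity on a linear scale, made with MAS5 according to the submitters' processing notes. The MAS5 version and scaling target were not given in the sources used here. Both arrays had a mean of 100.04 once the upper and lower 2% were trimmed.

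Names of probe sets came from the platform annotation: 20832 had 1 symbol, 436 several and 9831 none listed. Values below 20.4, the 50th percentile of both arrays, were set to it before log2 was taken, so a ratio with such a value is a bound. A probe set was measured if at least 1 array exceeded the floor. With 1 array per population no p-value was computed, and the number of arrays limits the precision. Precision was described by the 2 brightest probe sets of each gene above the floor on both arrays, as the root mean square of the difference between them divided by the square root of 2.

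The members and the 12 lists were chosen with earlier results of these data known. Named were all GIMAP probe sets and, of each list, the 2 brightest measured members and up to 3 per direction at least 1.5-fold apart. Cd3e, Cd3d, Klrb1b and Tmem176b were named after their values were seen. A member that this rule names is not reported here. Other treatments were floors at the 35th and 65th percentiles, log2 of the value plus 32, median centring, quantile normalisation, a loess trend (span 0.3), scaling to poly-A spikes and 1 value per gene. Scripts used Python 3.11.15, numpy 2.4.6, pandas 2.3.3 and statsmodels 0.14.6 and were tested on simulated data.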

Additional observations from a re-analysis of the deposited data

How the results depend on the processing

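Both other floors left every GIMAP value unchanged by construction, because all GIMAP signals lay above them. Median centring, quantile normalisation, the loess trend and log2 of the value plus 32 put Gimap4 between −0.88 and −0.73. There Gimap4 stayed at least 1.5-fold higher in Ly49s3+ cells, and the other 5 GIMAP probe sets stayed within 1.5-fold. The brighter Gimap1 probe set lay between −0.01 and 0.02 under these settings and so changed sign. The GIMAP median lay between 0.05 and 0.09, the lower value with 1 probe set per gene. With floors at the 35th and 65th percentiles and with log2 of the value plus 32, the probe sets 1.5-fold apart numbered 3937, 837 and 858, against 1854 as deposited. The lower floor gave medians of −0.31 for T cell, 0.21 for macrophage and −1.13 for erythroid markers, and the higher floor 0.71 for T cell, 0.11 for B cell and 0.035 for endothelial markers, which were at 0.28 with the added 32. Scaling to the poly-A spikes gave a GIMAP median of 0.59, with 3 GIMAP probe sets 1.5-fold higher in NKR-P1B+ cells and 0 in Ly49s3+ cells, of 6579 probe sets 1.5-fold apart. On that scale Gimap1 was at 0.61 and 0.53, Gimap4 at −0.36, Gimap5 at 0.81, Gimap6 at 0.58 and Gimap7 at 0.78. List medians were then 0.52 for the BCL-2 family, 0.63 for autophagy, 0.49 for quiescence, 0.60 for GSK3 and beta-catenin, 0.51 for other GTPases, 0.67 for the cluster's neighbours, 0.83 for NK cell, 0.30 for T cell, 0.90 for B cell and −0.089 for erythroid markers. This scaling adds 0.53 to every NKR-P1B+ value before the floor, by construction. The gap between Gimap4 and the other GIMAP probe sets was chosen as a measure after seeing the data. No paired analysis was possible because each population has 1 array, and for the same reason no array could be left out.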
